A study of Rattus norvegicus with 12 samples.

Results

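The 4 genes described here are known for their response to low oxygen and for their part in glucose use: Vegfa, Slc2a1, Hk2 and Ldha. They were taken by their Ensembl rat identifiers, in that order ENSRNOG00000019598, ENSRNOG00000007284, ENSRNOG00000006116 and ENSRNOG00000013009, and all 4 of the 4 were among the 21698 genes of the table. The series measured RNA by sequencing in 2 rat kidney cell lines, with 3 libraries in each of 4 groups. NRK-52E, an epithelial line, stands in for the tubule of the kidney in culture, and NRK-49F is a line of renal fibroblasts. E_Ctrl was NRK-52E given vehicle, and E_Cis was NRK-52E given 40 µM cisplatin, a chemotherapy drug whose platinum binds DNA and which is toxic to the tubule. The labels record no cisplatin given to the fibroblasts themselves. F_cmU was NRK-49F in medium that untreated NRK-52E had conditioned, and F_cmCis was NRK-49F in medium from NRK-52E that had been given 40 µM cisplatin. All groups were kept in DMEM with 5% FBS, with 50% confluence recorded for each, and no label names a low-oxygen group. The protocol gives 6 h of cisplatin, a rinse and 24 h of conditioning, whereas the design text gives 24 h of treatment. The labels do not settle which of them the NRK-52E libraries followed. The same times are recorded for the NRK-49F groups, whose hours in conditioned medium are not settled here either. F_cmU, the fibroblast control, had itself received medium from epithelial cells, and no fibroblasts in fresh medium were analysed here.

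In cells short of oxygen, the transcription factor HIF-1 builds up and binds a short DNA core, the hypoxia-response element. Its targets carry glucose into the cell, turn it into lactate and call in blood vessels. Slc2a1 encodes the glucose transporter GLUT1 and Hk2 encodes hexokinase 2, which traps glucose as glucose 6-phosphate. Ldha encodes the lactate dehydrogenase A subunit, which makes lactate from pyruvate at the end of anaerobic glycolysis. Vegfa encodes vascular endothelial growth factor A, a secreted signal to the endothelium that kidney tubules supply to the capillaries around them. All these genes also answer to growth factors and other stresses, so their RNA is not a measure of oxygen.

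The stretches just before the start sites are shown because the core that HIF-1 binds occurs in some of them and not in others. They are the 250 bases before the RefSeq start (build GRCr8), written 5′ to 3′ along the gene. Capitals mark the core ACGTG or GCGTG of the hypoxia-response element, searched on both strands, where the reverse strand reads CACGT or CACGC. The windows are chr5:138002272-138002521 on the plus strand for Slc2a1, chr1:106507842-106508091 on the plus strand for Ldha, chr9:22452604-22452853 on the plus strand for Vegfa and chr4:116841276-116841525 on the minus strand for Hk2.
Slc2a1: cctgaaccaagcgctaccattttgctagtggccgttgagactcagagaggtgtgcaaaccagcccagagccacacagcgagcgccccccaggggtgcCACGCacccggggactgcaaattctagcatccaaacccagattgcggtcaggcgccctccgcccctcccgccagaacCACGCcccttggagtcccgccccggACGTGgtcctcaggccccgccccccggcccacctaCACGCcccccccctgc
Ldha: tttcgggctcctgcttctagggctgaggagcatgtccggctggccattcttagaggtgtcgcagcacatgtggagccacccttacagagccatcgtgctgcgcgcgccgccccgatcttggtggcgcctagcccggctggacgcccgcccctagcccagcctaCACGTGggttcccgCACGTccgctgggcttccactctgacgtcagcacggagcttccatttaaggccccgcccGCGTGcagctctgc
Vegfa: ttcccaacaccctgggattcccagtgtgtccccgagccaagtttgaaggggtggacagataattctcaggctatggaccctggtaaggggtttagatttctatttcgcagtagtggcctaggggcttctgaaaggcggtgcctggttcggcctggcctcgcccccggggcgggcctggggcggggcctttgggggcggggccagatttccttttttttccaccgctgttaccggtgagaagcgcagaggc
Hk2: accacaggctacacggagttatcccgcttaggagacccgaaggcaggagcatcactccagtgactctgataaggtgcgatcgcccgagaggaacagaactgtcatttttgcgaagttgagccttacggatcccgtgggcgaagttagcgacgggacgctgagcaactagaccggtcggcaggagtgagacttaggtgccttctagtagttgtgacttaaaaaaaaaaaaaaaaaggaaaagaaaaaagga

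The Slc2a1 window held 4 matches, 1 of ACGTG and 3 of GCGTG, which began 153, 76, 51 and 16 bases before the start. The Ldha window also held 4 matches, 3 of ACGTG and 1 of GCGTG, which began 87, 86, 73 and 14 bases before the start. The pair at 87 and 86 is 1 palindrome, CACGTG, read on both strands, and it is also the E-box bound by factors such as MYC. The Vegfa and Hk2 windows held 0 matches, and so did the window of a further Vegfa start in RefSeq. Of 33469 rat promoter windows of this length, 36.7% held at least 1 match and 2.44% held at least 4. The windows differed in base composition, with 68.4% GC for Slc2a1, 66.4% for Ldha, 60.4% for Vegfa and 49.6% for Hk2, beside a median of 51.2% over all windows. A match is a run of letters and not a shown binding site, and sites farther from the start were not searched.

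Total counts ranged from 9684887 to 12549675 per library, and the 4 genes held 672 to 8862 counts in each library, so none was near the limit of detection. Levels are in CPM, counts relative to the library total after TMM scaling of all 12 libraries, a scaling that sets the bulk of genes level between libraries. They are not divided by gene length, so levels are compared between groups and not between genes. Tests are edgeR's quasi-likelihood test with Benjamini-Hochberg adjustment over all genes tested, passed at an adjusted p below 0.05, and SE is the standard error of the log2 fold change. In such bulk libraries a change in the mix of cells and a change in RNA per cell cannot be told apart. No label ties the 3 libraries of a group to separate cultures, and p-values thus speak of the spread among these libraries only, part or all of which may be technical. The files do not pair identifiers with gene names, and the RefSeq gene table matched 0 of the 21698 identifiers. The wider lists of glycolysis, HIF, VEGF and cell-type marker genes were therefore not analysed here, and the line identities were not checked against markers.

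**Figure D1:**
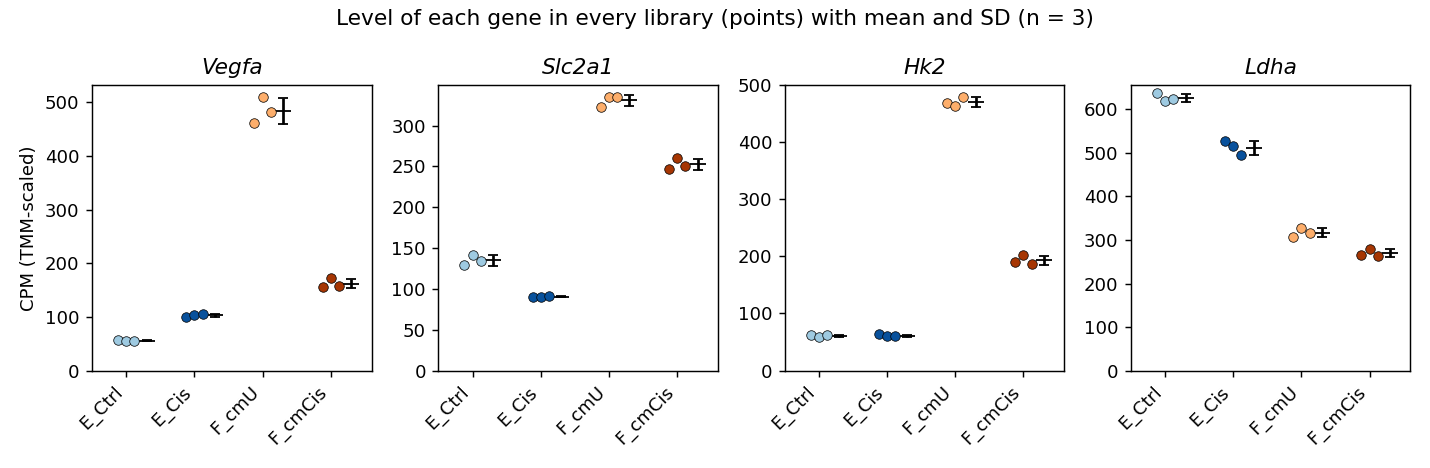
Level of each gene (CPM after TMM scaling, vertical axis from 0) in every library of the 4 groups (horizontal axis), with points for libraries and bars for the mean ± SD (n = 3). Vegfa is highest in F_cmU at 461 to 509.9 CPM, Hk2 overlaps between E_Ctrl and E_Cis, and Ldha is the gene with both NRK-52E groups above both NRK-49F groups.

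Vegfa, the secreted ligand, moved in opposite directions in the epithelial cells and in the fibroblasts. In NRK-52E it stood at 57.0, 55.7 and 54.9 CPM in the vehicle libraries and at 100.6, 103.8 and 105.8 CPM in the cisplatin libraries. Every cisplatin library lay above every vehicle library, and 77.7% of tested genes had groups that did not overlap in this line. Vegfa rose 1.83-fold with cisplatin, or 0.87 ± 0.05 (SE) in log2 fold change (edgeR adjusted p = 3.46e-17). In NRK-49F it stood at 461, 509.9 and 482 CPM in untreated medium and at 156, 172 and 158 CPM in cisplatin medium. The groups were again apart, as they were for 65.5% of tested genes, with every library in cisplatin medium lower. Vegfa fell 2.98-fold there, or -1.58 ± 0.04 (SE) in log2 fold change (edgeR adjusted p = 3.55e-26). Scaled by library size only, this fall was 2.59-fold. Among all 11525 genes tested in NRK-49F, 125 had a more negative fold change. In NRK-52E, 2043 of 12508 tested genes had a higher one.

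The edgeR test of the difference between these responses gave 2.47 ± 0.07 (SE) on the log2 scale for Vegfa (adjusted p = 3.81e-32). Of the genes tested, 66.5% passed this test. Scaled by library size only, the Vegfa difference was 2.29. Rising in NRK-52E while falling in NRK-49F was a pattern of 1694 of 10937 genes tested in both lines (15.5%). The lines received different agents, the drug in one and a medium in the other, so line and agent cannot be told apart in this contrast.

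Slc2a1, the glucose transporter, was lower after treatment in both lines. In NRK-52E it stood at 129, 142 and 134 CPM with vehicle and at 90.7, 90.3 and 90.9 CPM with cisplatin. The groups did not overlap, and the cisplatin libraries lay closer together than the vehicle libraries. Their coefficient of variation was 0.328%, below the 2.87 to 3.13% that counting error alone gives for each of these libraries, so this spread is no measure of precision. Slc2a1 fell to 0.665 times its vehicle level with cisplatin, or -0.59 ± 0.05 (SE) in log2 fold change (edgeR adjusted p = 2.44e-13). In NRK-49F it stood at 323, 335 and 335 CPM in untreated medium and at 247, 260.1 and 250.3 CPM in cisplatin medium. All 3 libraries in cisplatin medium were lower than any in untreated medium. The log2 fold change was -0.39 ± 0.04 (SE) (edgeR adjusted p = 1.65e-10), a fall of 1.31-fold. Scaled by library size only, the fall in NRK-49F was 1.14-fold, a log2 fold change of -0.19 (edgeR adjusted p = 8.49e-05). The fall was slightly deeper in NRK-52E than in NRK-49F, by a difference of -0.18 ± 0.06 (SE) on the log2 scale (edgeR adjusted p = 0.00821). This difference was -0.36 when scaled by library size only.

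Hk2, the enzyme of the first step of glycolysis, did not pass the test in the epithelial cells and fell in the fibroblasts. In NRK-52E it stood at 62.0, 58.6 and 61.5 CPM with vehicle and at 63.4, 60.4 and 59.9 CPM with cisplatin. The groups overlapped. The log2 fold change was 0.00 ± 0.06 (SE) (edgeR adjusted p = 0.981), and its 95% interval, -0.11 to 0.11, leaves room for changes of that size in either direction. In the same comparison 76.2% of tested genes passed the test. In NRK-49F, Hk2 stood at 468, 463 and 479 CPM in untreated medium and at 190.4, 202 and 187 CPM in cisplatin medium. Every library in cisplatin medium lay far below every library in untreated medium. Hk2 fell 2.43-fold, or -1.28 ± 0.04 (SE) in log2 fold change (edgeR adjusted p = 1.07e-24), and 189 of the 11525 genes had a more negative fold change. The responses differed by 1.30 ± 0.07 (SE) on the log2 scale (edgeR adjusted p = 5.43e-22). With library size only, the fall of Hk2 in NRK-49F was 2.11-fold and the difference of the responses 1.12.

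Ldha, the lactate-producing enzyme, changed least among the genes that passed in each line. In NRK-52E it stood at 638, 620.3 and 624 CPM with vehicle and at 526, 515 and 495 CPM with cisplatin. The groups did not overlap. Ldha fell 1.24-fold, or -0.31 ± 0.04 (SE) in log2 fold change (edgeR adjusted p = 1.11e-08). In NRK-49F it stood at 307, 327 and 315 CPM in untreated medium and at 265, 279.5 and 264 CPM in cisplatin medium. These groups were apart on the TMM scale, at -0.23 ± 0.04 (SE) in log2 fold change (edgeR adjusted p = 8.71e-06). Scaled by library size only they overlapped, at 249 to 264 CPM and 247 to 259.8 CPM. The log2 fold change was then -0.03 (edgeR adjusted p = 0.552), so the fall of Ldha in NRK-49F rests on the scaling. The responses of the 2 lines did not pass the test of their difference, which was -0.06 with a 95% interval of -0.18 to 0.05 (edgeR adjusted p = 0.339). With library size only it was -0.24 and passed (edgeR adjusted p = 0.000194). Leaving out 1 library, with the gene filter and the scaling computed anew, also moved this small difference. It was -0.13 without F_cmU replicate 2 (edgeR adjusted p = 0.0529) and -0.12 without F_cmCis replicate 3 (edgeR adjusted p = 0.0728). It was -0.11 without F_cmU replicate 3, -0.10 without F_cmU replicate 1 and -0.04 without E_Cis replicate 3. Leaving out any 1 of the 12 libraries did not bring it past the test. Without F_cmU replicate 1, log2 gaps between E_Cis and F_cmCis moved too, though neither group holds that library. That of Ldha went from 0.93 to 0.90 and that of Vegfa from -0.65 to -0.68. How much of these moves came from the scaling was not tested.

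**Figure D2:**
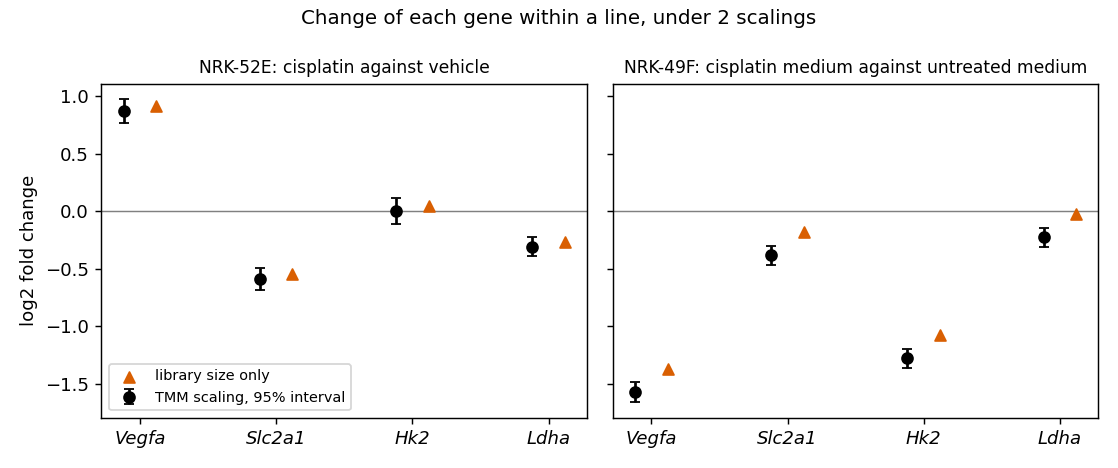
Log2 fold change of each gene within a line (vertical axis) in NRK-52E with cisplatin (left) and NRK-49F in cisplatin medium (right), with circles for TMM scaling and its 95% interval and triangles for scaling by library size only. Vegfa and Hk2 stand at -1.58 and -1.28 in NRK-49F, well below Slc2a1 and Ldha, and Ldha in NRK-49F moves to -0.03 with library size only.

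Counted together, 1 of the 4 genes rose, 2 fell and 1 did not pass in NRK-52E, where 38.7% of tested genes rose and 37.6% fell. All 4 fell in NRK-49F, where 31% of tested genes fell, 30.8% rose and 61.8% passed in either direction. With library size only, 3 of the 4 fell there and Ldha did not pass, while 16.7% of tested genes fell and 51.3% rose. On the TMM scale Slc2a1 and Ldha fell in both lines, as did 9.17% of the 10937 genes tested in both. The median log2 fold change of the 4 genes was -0.16 in NRK-52E beside 0.01 over all genes, and -0.83 in NRK-49F beside 0.02 over all genes. With library size only, the median over all genes in NRK-49F stood at 0.22, and directions in that line are thus read against its other genes.

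**Figure D3:**
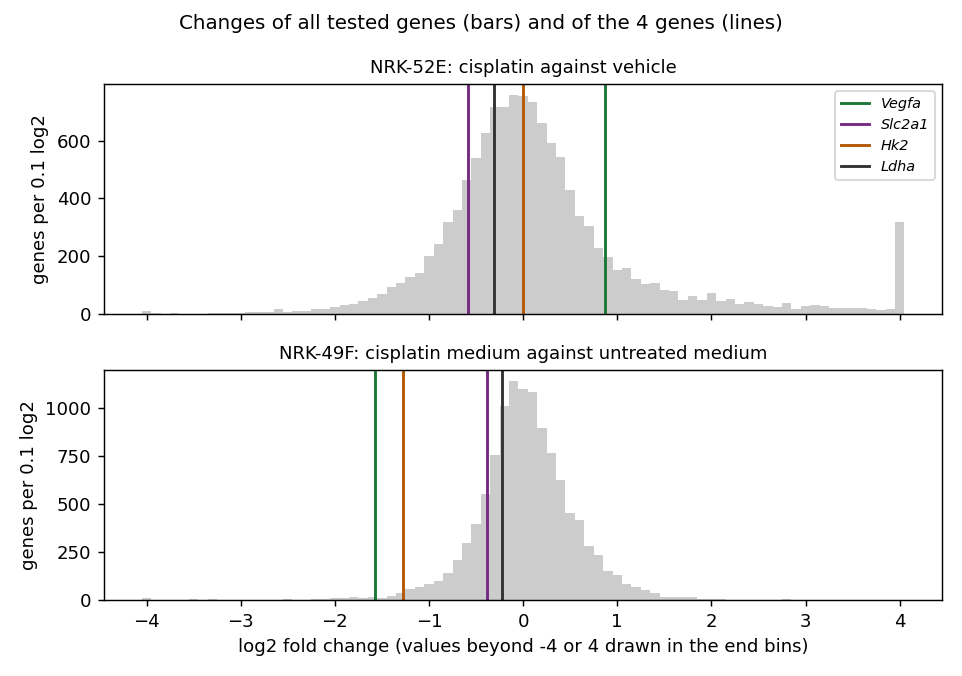
Number of tested genes in each step of 0.1 of log2 fold change (bars) with the 4 genes as vertical lines, for NRK-52E (top) and NRK-49F (bottom). Vegfa lies on the right flank in NRK-52E at 0.87, Hk2 lies at the centre there, and in NRK-49F both lie in the left tail.

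Ratios of counts within a library do not depend on any scaling, and they show which genes moved apart. In NRK-52E the ratio of Vegfa to Slc2a1 was 2.75-fold higher with cisplatin, at a log2 ratio of 0.19 ± 0.04 against -1.27 ± 0.09 with vehicle (SD, 3 libraries each). The ratio of Hk2 to Ldha was 1.24-fold higher in the same cells, a difference of 0.31 in the log2 ratio. In NRK-49F both ratios lay on the other side. The ratio of Vegfa to Slc2a1 was 2.28-fold lower in cisplatin medium, at a log2 ratio of -0.64 ± 0.04 against 0.55 ± 0.05 (SD, 3 libraries each). That of Hk2 to Ldha was 2.07-fold lower, a difference of -1.05. The 2 genes that fell most in the fibroblasts, Vegfa and Hk2, also moved apart. They are the genes whose windows before the start held 0 core matches, which with 4 genes is a description only. Of all rat windows only 36.7% held a match, and a relation of matches to changes was not tested. The ratio of Vegfa to Hk2 was 1.23-fold lower in cisplatin medium, a difference of -0.30 with a pooled SD of 0.06. That of Slc2a1 to Ldha was 1.12-fold lower, a difference of -0.16 with a pooled SD of 0.02. By exact permutation, two-sided, p was 0.1 for each of the 6 pairs in each line, also after Benjamini-Hochberg adjustment over the pairs, and no smaller p can be reached with 3 libraries a group.

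The control groups of the 2 lines differed for all 4 genes, in a comparison in which line, agent and medium cannot be told apart. Vegfa was 8.66-fold higher in F_cmU, at 484 ± 24.5 CPM, than in E_Ctrl, at 55.9 ± 1.02 CPM (SD, n = 3 each, edgeR adjusted p = 2.71e-43). Hk2 was 7.75-fold higher, at 470.2 ± 8.13 against 60.7 ± 1.82 CPM (SD, n = 3 each, edgeR adjusted p = 1.82e-43). The fibroblast libraries were thus the richer in RNA for the ligand and for hexokinase 2. Slc2a1 was 2.45-fold higher in F_cmU, at 331 ± 6.62 against 135 ± 6.65 CPM (SD, n = 3 each, edgeR adjusted p = 3.34e-30). Ldha went the other way and was 1.98-fold higher in E_Ctrl, at 627 ± 9.06 against 316.5 ± 10.3 CPM (SD, n = 3 each, edgeR adjusted p = 9.08e-27). This test passed 81.7% of the 13127 genes. The scaling moved values more between the lines than within them. With library size only, the folds were 6.17 for Vegfa, 5.51 for Hk2, 1.75 for Slc2a1 and 2.79 for Ldha, with the directions kept, and the median over all genes moved from 0.03 to 0.52 on the log2 scale.

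Between the treated groups the gap was narrower for Vegfa and Hk2. F_cmCis held 162 ± 8.68 CPM of Vegfa and E_Cis 103 ± 2.65 CPM (SD, n = 3 each), a 1.57-fold difference (edgeR adjusted p = 7.89e-17). The gap for Hk2 was 3.15-fold (edgeR adjusted p = 1.67e-32), with 193 ± 7.63 CPM in F_cmCis and 61.3 ± 1.90 CPM in E_Cis (SD, n = 3 each). For Vegfa both lines moved towards each other, whereas for Hk2 the fibroblasts alone passed the test. The gap for Slc2a1 was 2.79-fold (edgeR adjusted p = 1.55e-31) and that for Ldha 1.90-fold in favour of NRK-52E (edgeR adjusted p = 1.87e-25). This test passed 82.7% of genes. With library size only, the Vegfa gap between treated groups was 1.26-fold (edgeR adjusted p = 1.58e-08).

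**Figure D4:**
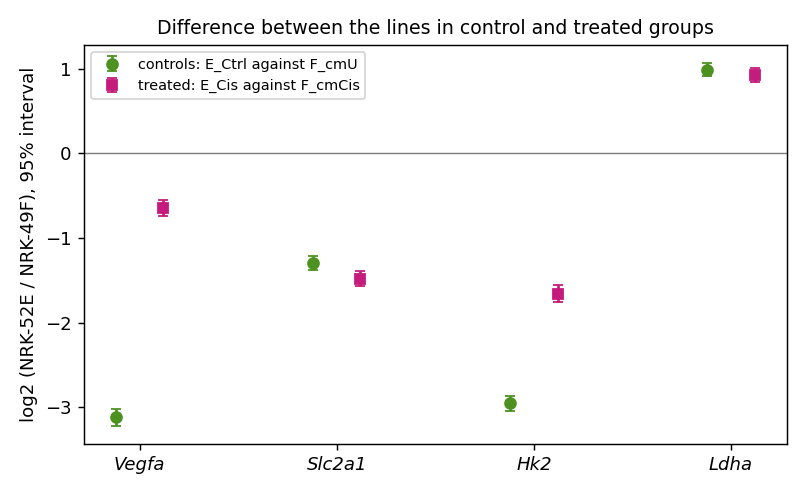
Log2 ratio of NRK-52E to NRK-49F (vertical axis, with 95% intervals) for each gene, between the control groups (circles) and between the treated groups (squares). The ratio for Vegfa goes from -3.12 to -0.65 and that for Hk2 from -2.95 to -1.66, while Ldha lies above 0 in both, at 0.99 and 0.93.

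Ordered by level, Vegfa ran from F_cmU through F_cmCis and E_Cis to E_Ctrl, and no neighbouring groups overlapped. F_cmCis and E_Cis did not overlap for 83% of all genes tested. Slc2a1 ran from F_cmU through F_cmCis and E_Ctrl to E_Cis, also with no overlap between neighbours, and F_cmCis and E_Ctrl did not overlap for 80.3% of genes. Hk2 ran from F_cmU through F_cmCis to the 2 NRK-52E groups, which did not differ beyond their spread. Ldha ran from E_Ctrl through E_Cis and F_cmU to F_cmCis. No neighbours overlapped on the TMM scale, E_Cis and F_cmU did not for 84.5% of genes, and the last 2 groups of Ldha overlapped when library size was the only scaling.

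Across the 12 libraries the profiles of Vegfa and Hk2 were the closest among the 6 pairs of these genes. The root-mean-square difference of their log2 CPM, each centred on its own mean, was 0.39, and the farthest pair, Hk2 and Ldha, stood at 1.67. The 12 libraries form 4 groups, so this is a description of 4 levels. Of 9105 other genes with a mean of at least 10 CPM, 4 lay within 0.2 of Vegfa and 5 within 0.2 of Hk2, beside 108 for Slc2a1 and 161 for Ldha. The gene nearest to Vegfa was ENSRNOG00000027002, at a distance of 0.17. It rose in NRK-52E, with a log2 fold change of 0.50 (edgeR adjusted p = 5.10e-11). It fell in NRK-49F, with a log2 fold change of -1.71 (edgeR adjusted p = 6.81e-28). The nearest to Slc2a1 was ENSRNOG00000009997, at 0.08, and the nearest to Ldha was ENSRNOG00000027124, also at 0.08, and both fell in both lines. The files give these identifiers no names.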

How the data were processed

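The authors deposited raw read counts per Ensembl rat gene, 1 column per library headed by the sample's title. The submitters' processing notes name STAR 2.7.10a, featureCounts and Subread but no roles or settings. Genome build, annotation and strandedness of the counting were not given in the sources used here, so reads of overlapping or antisense genes may be included, and Vegfa isoforms are summed. Total counts were 9684887 to 12549675.

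The whole table was fitted with edgeR 4.0.16 in R 4.3.3 (filterByExpr with minimum count 10 and minimum total 15, TMM, glmQLFit, glmQLFTest, group only), each line apart and, across lines, all 12 libraries. Benjamini-Hochberg adjustment ran over all genes tested, at 0.05. Each SE was taken as the size of the log2 fold change over the root of its F statistic. The edgeR step was also run on simulated counts with known changes. Few genes changed in them, unlike in these data, so that run does not test the choice of scaling. Pairs of libraries within a group differed by more than sampling noise (chi-square per degree of freedom 1.67 to 3.84). Technical spread can also give such values, so they do not settle whether the libraries came from separate cultures or were repeat reads of 1 library. Each library counted as 1 sample. Ratios were compared by exact permutation. Genes most like a member were those with the smallest root-mean-square difference of centred log2 CPM (prior count 2, mean of at least 10 CPM), 1 per member, and at most 2 identifiers that rose and 2 that fell were to be named, so that of Hk2 is left out. Alternatives were RLE scaling, library size only, DESeq2 1.42.0, no filter, a replicate block, all 12 libraries in 1 fit, a test against 1.5-fold, and each library left out. Promoter letters are from RefSeq (GRCr8), matched by symbol for 4 of 4 genes. Figures were drawn with matplotlib 3.10.9. The genes, lists and tests were chosen with earlier results of these data known. Other pathway and marker lists could not be applied without gene names.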

Additional observations from a re-analysis of the deposited data

Results flagged for a closer look

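The responses of 3 of the 4 genes differed between the lines by the edgeR test of the difference itself, which is why they are given here. NRK-52E received the drug and NRK-49F a medium, so line and agent cannot be told apart in this test. The response in NRK-52E minus that in NRK-49F was 2.47 on the log2 scale for Vegfa (adjusted p = 3.81e-32), 1.30 for Hk2 (adjusted p = 5.43e-22) and -0.18 for Slc2a1 (adjusted p = 0.00821). Of all 13127 genes tested, 66.5% passed this test, so 3 of 4 is near the share of all genes. For Slc2a1 the difference was small, as 84.4% of tested genes had a larger one in either direction. It was -0.36 with library size only, and it did not pass the test against a 1.5-fold change. Groups of 3 libraries are too small for a search for single deviating libraries.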

How the results depend on the processing

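Of 320 values of the 4 genes under the alternatives, 312 kept their direction and side of the threshold, or stayed short of it. Of the rest, 7 no longer passed, 1 newly passed and 0 called values reversed. Most of the 320 come from leaving out 1 library, at times one from neither group compared, so the total says little about robustness. All the changes came with library size only or the test against 1.5-fold. With library size only, Ldha in NRK-49F was at -0.027 and no longer passed, and its difference between the lines was at -0.24 and newly passed; the cause was not tested beyond the scaling itself. The test against a 1.5-fold change asks for more than a difference from 0. Under it, Slc2a1 (-0.59) and Ldha (-0.31) in NRK-52E, Slc2a1 (-0.39) and Ldha (-0.23) in NRK-49F, the Slc2a1 difference between the lines (-0.18) and the Vegfa gap between treated groups (-0.65, adjusted p = 0.0585) did not pass. The counts of all genes called then fell from 9536 to 3883 in NRK-52E, from 7123 to 1184 in NRK-49F, from 8724 to 4512 for the difference, from 10729 to 6709 between control groups and from 10862 to 6238 between treated groups. With each library left out in turn no call on the 4 genes changed; Vegfa ranged from 0.85 to 0.89 in NRK-52E and from -1.62 to -1.54 in NRK-49F, the Slc2a1 difference kept an adjusted p of at most 0.0412, and the Ldha difference, which did not pass, ranged from -0.13 to -0.04. Libraries of the same number did not deviate together (r of deviations from group means -0.05 to 0.04). Whether they were handled together is not known, as the labels do not say and such values cannot show it. With a replicate block Vegfa stood at 0.87 in NRK-52E and -1.58 in NRK-49F, Hk2 at -1.28 in NRK-49F, and no call on the 4 genes changed.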
